A study of Mus musculus with 7 samples.

Results

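The miR-130 and miR-301 seed family was followed across naive and activated mouse CD4 T cells on 7 custom Agilent small-RNA arrays. Members were all probes whose target carried, at bases 2 to 8, the seed of probe UC1005419, and 16 of the 1874 probes on the array did. The family was singled out because its probes rose in activated cells in earlier results on these same arrays, so its differences from naive cells are given as a description. Calls among its members in those comparisons are counted only beside the share for all features, and nothing is read from them. The comparison between the activated groups was not itself used in that choice and was tested. It uses the same activated arrays as the choice, so it is not independent of it.

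All cells were CD4+ T cells with the transgenic receptor DO11.10 (also spelled D011.10 in the labels), specific for an ovalbumin peptide, from Balb/c mice labelled as 6 to 8 weeks old. The naive group held 2 arrays of cells from DO11.10 Rag2+/+ donors, sorted as CD25- and CD44 low. The WT host and sOVA host groups held 2 and 3 arrays of donor cells from Rag2-/- mice, recovered as CD44 high cells 5 days after intravenous transfer into WT Balb/c or sOVA recipients. Both kinds of recipient were immunized 24 hours after transfer with bone marrow-derived dendritic cells, which had been activated with LPS and carried Ova peptide. The naive and activated groups therefore differed in Rag2 genotype, transfer and sort gate as well as in activation, and these cannot be told apart. The sample titles name the immunized groups by an OVA or sOVA immunization, while the protocol gives the same immunization to both, and the groups are named here by their recipient. The series title says that activation was in vitro, whereas its design text and protocol describe it as in vivo. Cells came from pooled spleens and lymph nodes, 250 ng of RNA was named in the design text, and nothing in the labels says that arrays of a group came from separate pools, so p-values may measure technical spread only.

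MicroRNAs are short RNAs that guide Argonaute proteins to messenger RNAs, mainly by pairing of the seed near their start, and members with a common seed share many predicted targets. The family is made from separate genes: miR-130b and miR-301b are neighbours, while miR-130a and miR-301a lie elsewhere. In CD4 T cells miR-301a is known for repressing Pias3, an inhibitor of STAT3 signalling, in Th17 differentiation, and miR-130a is known from blood progenitors and endothelial cells.

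The RefSeq table for GRCm38.p6 held 7 mature mouse miRNAs with this seed, and 4 of them had a probe of the exact sequence. These 4 are shown because they carry the names used below, with the seed in capitals, written 5′ to 3′ as RNA.
miR-130a-3p: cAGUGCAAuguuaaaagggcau
miR-130b-3p: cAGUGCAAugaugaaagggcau
miR-301a-3p: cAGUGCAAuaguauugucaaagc
miR-721: cAGUGCAAuuaaaagggggaa

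In GRCm38.p6, miR-130a-3p lies at chr2:84741116-84741137 on the minus strand with no other gene spanning it. The mature miR-301a-3p lies at chr11:87113054-87113076 on the plus strand within Ska2, a gene for a spindle and kinetochore protein. For miR-130b-3p the position is chr16:17124071-17124092 on the minus strand, within 2610318N02Rik. The fourth, miR-721, lies at chr5:136375777-136375797 on the minus strand within Cux1, which codes for a homeobox transcription factor. The other 3 RefSeq miRNAs with the seed, miR-6341, miR-6389 and miR-130c, matched no probe.

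The other probes of the family differ from these sequences by a base or more. They are shown because the values of some differ from those of their nearest relative. They are written as DNA with the seed in capitals, and also each base that differs from the sequence each was set against, which for UC1005421 is UC1005422. UC1005422, read from its own hairpin, has only its seed in capitals.
UC1005050: cAGTGCAAtAatgaaagggcat
UC1005051: cAGTGCAAtAatgaaagggcGt
UC1005055: cAGTGCAAtAttaaaagggcat
UC1005417: cAGTGCAAtaAtattgtcaaagcat
UC1005422: cAGTGCAAtggtattgtcaaagc
UC1005421: cAGTGCAAtgAtattgtcaaagc
UC1005423: cAGTGCAAtagtattgtcaTag
UC1005420: cAGTGCAAtagtattgtcaTTg

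Positions count from 1 at the 5′ end of the target, with the base of the named sequence first. UC1005050 differed from miR-130b-3p by G10A, and UC1005051 by G10A and A21G. UC1005055 carried G10A relative to miR-130a-3p. UC1005417 carried G11A relative to miR-301a-3p over the 23 bases compared. UC1005423 differed from miR-301a-3p by A20T, and UC1005420 by A20T and A21T. The target of UC1005422 lies whole within the RefSeq hairpin of Mir301b at chr16:17124400-17124496, minus strand, from its base 55 of 97. The hairpins of Mir130b and Mir301b are 257 bases apart. Relative to miR-301a-3p, UC1005422 carried A10G. UC1005421 differed from UC1005422 by G11A, and from miR-301a-3p by A10G and G11A. The RefSeq table held no mature mouse sequence equal to the target of any of these 8 probes.

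Of the 16 probes, 9 passed the detection filter and 7 did not. To pass, a feature had to be detected on every array of some group, where detected means that at least 50% of its 7 spots were well above background. UC1005418, miR-301a-3p without its last base, was merged with UC1005419, which left 8 features to test among 342 tested on the whole array. The 6 probes detected on no array were UC1006103 (miR-721), UC1005420, UC1005423, UC1005655, UC1005657 and UC1005658, the last 3 with T as their first base. UC1005055 was detected on naive array 2 alone.

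Levels are the mean log2 signal of a probe's spots scaled on each array, printed as a percent of that array's reference signal, which is the 75th percentile of the 253 probes that were detected throughout. The arrays had 309 to 467 detected probes. The reference signal was 9281 to 15743 units on 5 arrays, but 3591 on WT host array 2 and 2729 on sOVA host array 3. The latter array stood apart in other ways: the erythroid miR-451a was at 192% there against 5.76% to 51.1% on the other 6 arrays. The summed erythroid list (2 of 3 markers matched) was 28% to 51.3% on naive, 10.1% to 29.0% on WT host and 5.91% to 192% on sOVA host arrays, with miR-144-3p detected on no array. The summed stromal list (2 of 4 matched) was 1.02% to 1.66%, 1.4% to 2.5% and 0.89% to 11% in that order, with miR-199a-3p detected on no array. The myeloid miR-223-3p was at 12.1% to 14.3% on naive and 1.03% to 3.16% on activated arrays. The blood-cell miR-142a-3p was detected on all 7 arrays, and the summed blood list (4 of 5 matched) was 544% to 662%, 314% to 339% and 227% to 952%. Members of this list moved in different directions. In it miR-155-5p read 10.9% and 9.43% on naive, 58.7% and 67.4% on WT host, and 263%, 351% and 51.7% on sOVA host arrays. For miR-146a-5p it was 17.3% and 8.9%, then 54.2% and 85.8%, then 325%, 370% and 76.7%. Both miR-142a-3p and miR-181a-5p were lower on each activated array than on either naive array. The endothelial miR-126a-3p was at 0.445% to 1.43% on naive, 0.682% to 0.841% on WT host and 0.477% to 1.72% on sOVA host arrays, and detected on 1 array. The 6 epithelial markers summed to 8.62% to 8.76%, 4.02% to 5.06% and 4.67% to 11.2%. Of these, miR-205-5p was at 0.159% and 0.065% on naive, 0.149% and 0.297% on WT host, and 3.43%, 5.9% and 1.11% on sOVA host arrays, and it was detected on 2 arrays. The part of other cells and of array brightness in the family's differences was not tested. In such sorted pools a change in RNA per cell and a change in the share of cells that hold it cannot be told apart.

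On the miR-301 side, miR-301a-3p was low on naive arrays and several-fold higher on every activated array. The miR-301a-3p probe UC1005419 read 2.53% and 2.52% in naive, 30.5% and 32.7% in WT host and 21.9%, 12.8% and 21.0% in sOVA host cells. The naive arrays were lowest and the WT host arrays highest, with no overlap among the 3 groups. WT host cells exceeded naive cells by 3.64 ± 0.35 (SE) on the log2 scale, 12.5-fold, and sOVA host cells by 2.84 ± 0.32, 7.15-fold. The shorter probe of the same miRNA, UC1005418, read 2.12% and 2.08%, then 25.5% and 30.7%, then 18.0%, 10.4% and 19.7%, in the same order of groups.

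UC1005422, the probe within the Mir301b hairpin, was not well above background on either naive array. It read 0.343% and 0.297% there, 6.50% and 6.99% in WT host and 4.6%, 3.46% and 4.56% in sOVA host cells. All 5 activated arrays were above background. Against a dim group a fold is given as a bound, set by the dimmest signal that counted as detected on each naive array or by the probe's own signal where that is higher. Such bounds hold only for the main scaling and background. For UC1005422 the bound was at least 13.2-fold in WT host and at least 8.18-fold in sOVA host cells.

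UC1005417, the G11A relative of miR-301a-3p, was likewise below that level on both naive arrays, at 0.260% and 0.228%. Its levels were 6.21% and 14.6% in WT host and 2.48%, 1.79% and 9.33% in sOVA host cells, at least 18.7-fold and at least 6.78-fold above naive cells. Its highest values fell on the 2 arrays with the lowest reference signal. Before scaling, its signal was 576 and 524 units in WT host and 245, 199 and 255 units in sOVA host cells, so these groups overlapped only after scaling. UC1005421 was detected on 3 of the 7 arrays. It read 0.159% and 0.065% on naive, 1.82% and 2.15% on WT host, and 0.898%, 0.969% and 1.37% on sOVA host arrays. It was detected on both WT host arrays but on only sOVA host array 2 of the 3. Its bound was at least 3.88-fold in WT host cells. The same ratio was 2.08-fold in sOVA host cells, but is no lower bound, since 2 of those 3 arrays were not well above background.

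The miR-130b-3p probe and its unnamed relatives UC1005050 and UC1005051 were detected on all 7 arrays. They were higher on each activated array than on either naive array. UC1005052, which matches miR-130b-3p exactly, read 4.27% and 5.42% on naive, 27.2% and 29.0% on WT host, and 13.4%, 14.6% and 20.6% on sOVA host arrays. These groups did not overlap and kept the order naive, sOVA host, WT host. WT host cells were 2.54 ± 0.32 (SE) above naive cells on the log2 scale, 5.83-fold, and sOVA host cells 1.73 ± 0.29, 3.31-fold.

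UC1005050, with its single substitution, read 3.86% and 4.84%, then 25.5% and 26.5%, then 12.8%, 13.6% and 18.4%. UC1005051, with a pair of substitutions, read 3.06% and 3.50%, then 19.3% and 20.1%, then 9.72%, 10.2% and 14.4%. Both followed the exact miR-130b-3p probe on every array. The log2 difference between UC1005052 and UC1005050 stayed between 0.07 and 0.17 on the 7 arrays. Whether these probes read RNA of miR-130b-3p itself was not tested, so the 8 features may not be 8 separate miRNAs.

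The miR-130a-3p probe UC1005048 was higher on each activated array than on either naive array. It read 0.782% and 0.999% on naive, 3.24% and 5.04% on WT host, and 3.08%, 1.68% and 7.95% on sOVA host arrays. Only 2 of its 7 spots were well above background on naive array 1, and every spot was on the other 6 arrays. Its activated groups overlapped, and its highest value was on sOVA host array 3, where the stromal miR-214-3p was at 9.25% against 0.739% to 2.26% elsewhere. The difference from naive cells was 2.19 ± 0.72 (SE) for WT host and 1.96 ± 0.66 for sOVA host cells on the log2 scale. Its G10A relative UC1005055 read 0.177% and 0.333% on naive, 0.256% and 0.696% on WT host, and 0.734%, 0.182% and 2.12% on sOVA host arrays, with no activated array counted as detected.

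**Figure D1:**
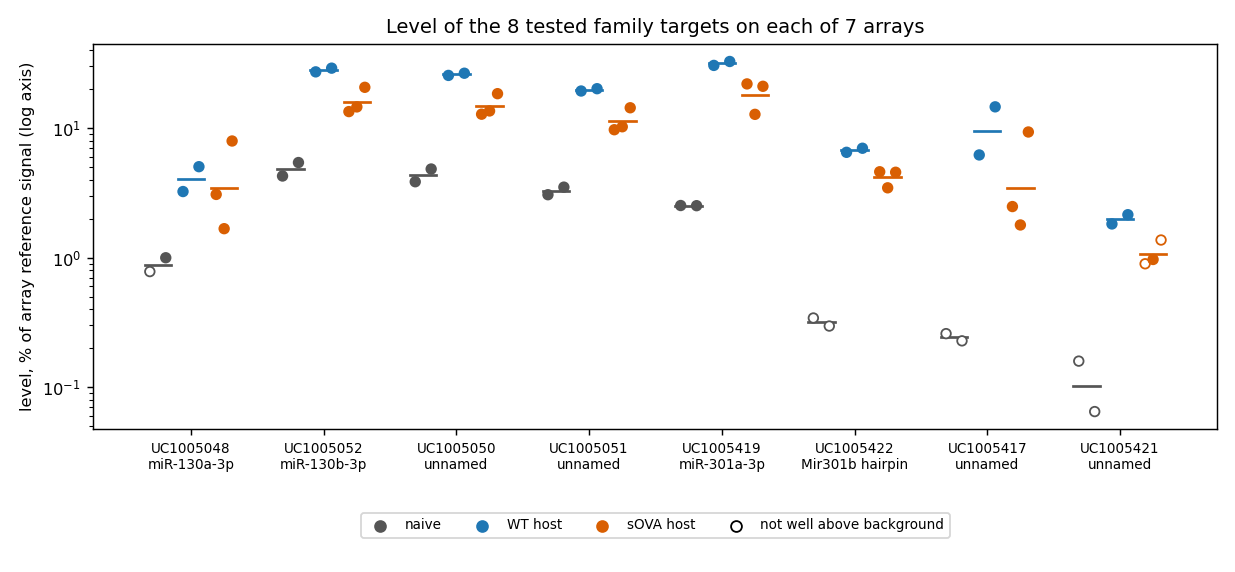
Level of each of the 8 tested family features on each array, as a percent of the array's reference signal on a log axis, with lines at group geometric means (n = 2, 2 and 3). Open circles mark arrays where fewer than 50% of spots were well above background. The naive arrays lie below all activated arrays for each feature, and the WT host and sOVA host arrays overlap for UC1005417 and UC1005048.

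Across the array, 12.9% of the 342 tested features passed limma's adjusted threshold of 0.05 as higher in WT host than in naive cells, and 5.85% as lower. Among the 8 family features, 7 passed as higher and none as lower, and UC1005048 did not pass. In sOVA host cells 15.5% of all features were higher and 5.56% lower than in naive cells, and the same 7 family features passed as higher. UC1005417, UC1005421 and UC1005422 passed the filter only through activated groups and so had to be higher there. UC1005048, detected on naive array 2 but not on naive array 1, also passed the filter only through activated groups. The 4 features detected on all 7 arrays passed as higher in each comparison. The counts follow from how the family was chosen and are no evidence for it, and both comparisons use the same naive arrays. Without naive array 1, and likewise without naive array 2, the count in sOVA host cells fell to 3 of 8 and that of all features called higher from 53 to 10 and 11. That latter count was 29 without sOVA host array 1 and 85 without sOVA host array 3. In WT host cells the 44 features called higher became 16 and 15 without naive array 1 or 2, 24 and 14 without WT host array 1 or 2, and 98 without sOVA host array 3. The median log2 difference of the 8 features was 3.12 in WT host and 2.40 in sOVA host cells, or 2.59 and 1.87 with the 3 features dim in naive cells at their bounds, against 0.27 and 0.11 over all 342 features. For UC1005421 in sOVA host cells the ratio set in the same way stood in for a bound. The 4 features detected on all 7 arrays ran from 2.54 (UC1005052) to 3.64 (UC1005419) in WT host cells.

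Differences between probes on 1 array do not depend on its scaling, and their change between arrays shows unequal change of the members. The log2 difference of miR-301a-3p (UC1005419) from miR-130b-3p (UC1005052) was -0.76 and -1.11 on the naive arrays, 0.17 and 0.17 in WT host, and 0.71, -0.19 and 0.03 in sOVA host cells. Both naive arrays lay below all 5 activated arrays, and the mean difference was higher than in naive cells by 1.1 in WT host and 1.11 in sOVA host cells on the log2 scale. Between the activated groups this ratio changed by 0.01, less than the SD of 0.47 among the sOVA host arrays. For miR-130b-3p against miR-130a-3p the log2 differences were 2.45 and 2.44 on naive, 3.07 and 2.53 on WT host, and 2.12, 3.12 and 1.38 on sOVA host arrays. Here the WT host arrays lay above the naive arrays and the sOVA host arrays spanned both, with sOVA host array 3 lowest. Naive array 1 had only 2 of 7 miR-130a-3p spots well above background.

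**Figure D2:**
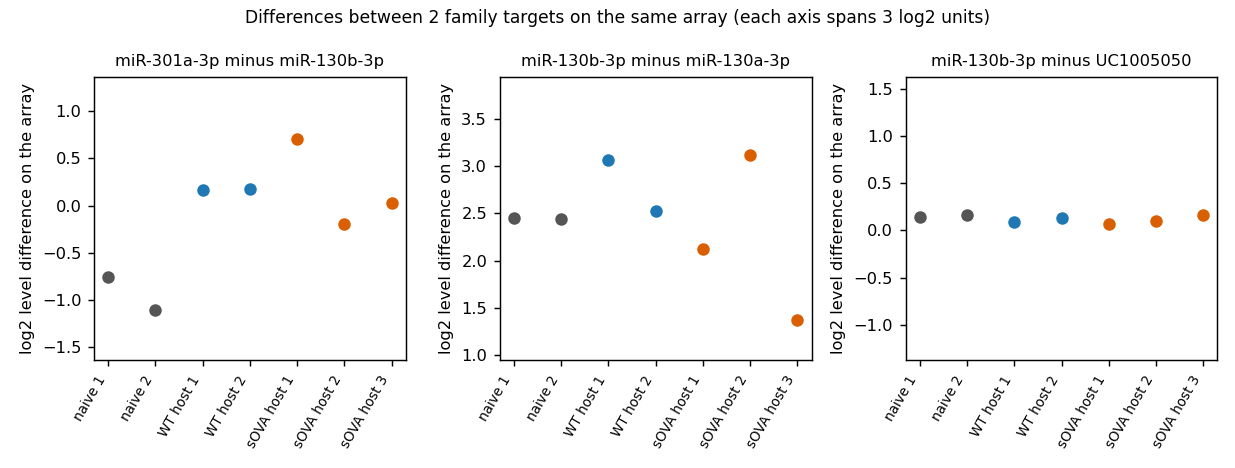
Log2 level difference between 2 family targets on the same array, for the 7 arrays, with axes of equal span. The difference of miR-301a-3p from miR-130b-3p is -0.76 and -1.11 on the naive arrays and -0.19 to 0.71 on the activated arrays, while that of miR-130b-3p from UC1005050 stays between 0.07 and 0.17.

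The mean level of 7 of 7 family features was lower in sOVA host than in WT host cells, and none passed the adjusted test. The eighth, UC1005421, passed the detection filter only through the WT host arrays, which favours a lower level in sOVA host cells, and is left out of the counts. The WT host arrays were also in view when the family was chosen, which may likewise favour a lower level in sOVA host cells. In 5 of the 7, all but UC1005417 and UC1005048, every sOVA host array lay below both WT host arrays. The epithelial miR-205-5p was higher on each sOVA host array than on either WT host array, at 1.11% to 5.9% against 0.149% to 0.297%. Its 1.11%, on sOVA host array 3, was below the dimmest signal that counted as detected there. Among the other epithelial markers, miR-200c-3p, miR-141-3p and miR-203-3p overlapped between the hosts. The remaining miR-200a-3p and miR-200b-3p were higher on each sOVA host array, but below the detected level on every activated array. The part of these markers was not tested. Over all 342 features, 59.9% had a difference below 0, and 17.8% had groups that did not overlap in that direction. With an adjusted threshold of 0.05 in limma, 0.0% of all features passed in either direction, while 41 of the 342 had an unadjusted p under 0.05. On the lower side that unadjusted threshold was met by 9.06% of all features and by 5 of the 7 family features (UC1005050, UC1005051, UC1005052, UC1005419 and UC1005422). Of these, UC1005050, UC1005051 and UC1005052 followed one another closely over the arrays (r = 0.999 to 1.000), so the 5 may not be separate results. The shares of all features keep those that passed the filter only through the WT host arrays. The median difference was -0.81 on the log2 scale over the family features and -0.15 over all tested features.

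For miR-301a-3p (UC1005419) the sOVA host minus WT host difference was -0.80 ± 0.32 (SE) on the log2 scale, 1.75-fold lower, with a 95% interval from -1.57 to -0.04 and a limma adjusted p of 0.390. The difference for miR-130b-3p (UC1005052) was -0.82 ± 0.29, 1.76-fold lower, with a limma adjusted p of 0.362. UC1005422 was lower by the ratio of 1.62, a log2 difference of -0.69 ± 0.26 with a limma adjusted p of 0.381. All 3 were lower on 3 of 3 sOVA host arrays than on either WT host array, and none passed after adjustment over all tested features.

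UC1005050 and UC1005051 had differences of -0.82 ± 0.28 and -0.81 ± 0.28, both with a limma adjusted p of 0.331. UC1005421, not well above background on sOVA host arrays 1 and 3, is given by its levels alone. The widest errors belonged to the features with overlapping groups. UC1005417 differed by -1.46 ± 0.76 with a limma adjusted p of 0.531, and by -0.84 without WT host array 2 and -0.98 without sOVA host array 2. For miR-130a-3p (UC1005048) the difference was -0.23 ± 0.66, with a 95% interval from -1.82 to 1.36 and a limma adjusted p of 0.901.

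The slide position given by each array's row was compared because arrays of different groups in the same row deviated together from their group means (r from 0.18 to 0.61 over the tested features). In a group of 2 arrays the deviations mirror each other, so these values do not come from separate pairs. Row 1 held naive array 1, WT host array 1 and sOVA host arrays 1 and 2, and row 2 held the other 3 arrays. The activated arrays of row 2 were those of lowest reference signal, so among activated arrays row and brightness cannot be told apart. Within row 1 the difference between hosts was -0.86 for miR-301a-3p, -0.96 for miR-130b-3p, -0.70 for UC1005422 and -0.51 for miR-130a-3p. Within row 2 it was -0.64, -0.49, -0.62 and 0.66 in the same order, so the sign turned for miR-130a-3p. With row as a block neither a family feature nor any other of the 342 tested features passed between hosts. For miR-301a-3p the limma adjusted p was then 0.318.

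The calls between hosts depended on sOVA host array 3. Without it, 4 family features passed as lower: UC1005417 (-2.18), UC1005050 (-0.98), UC1005051 (-0.98) and miR-130b-3p (UC1005052, -1.01), with limma adjusted p-values from 0.030 to 0.032. In that fit 65 of 342 features passed, 27 of them as lower, or 7.89% of all. Without both arrays of low reference signal (WT host array 2 and sOVA host array 3), which leaves a single WT host array assumed to vary like the others, UC1005417 alone passed (-1.56, limma adjusted p 0.048), among 47 features in all. For miR-301a-3p no setting tried gave an adjusted p under 0.05 in this comparison.

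**Figure D3:**
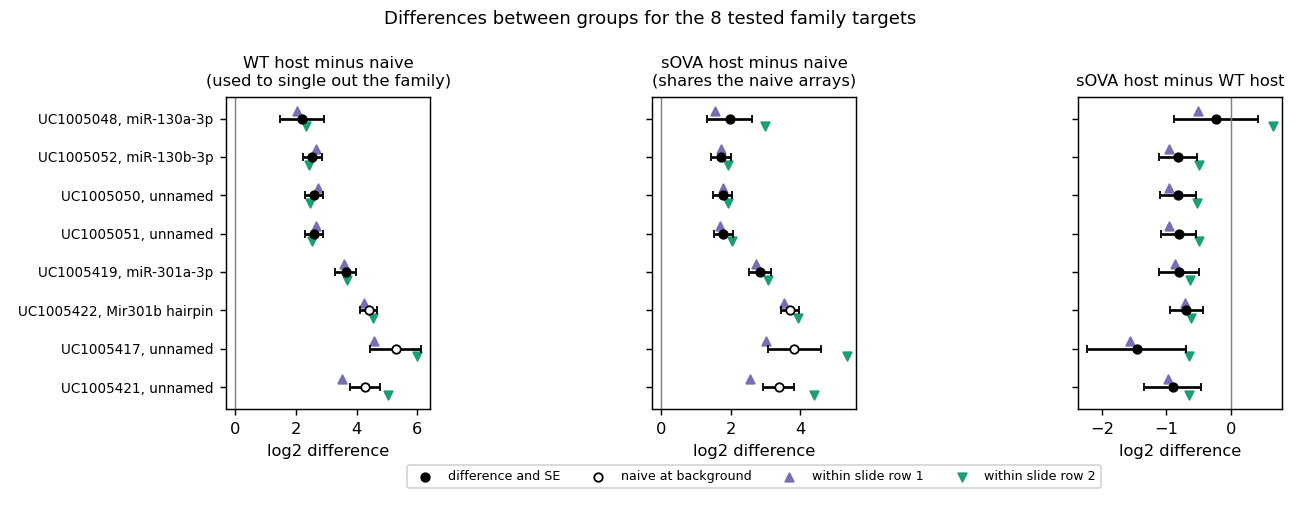
Log2 differences between groups for the 8 tested family features, with SE bars from limma on all 7 arrays and triangles for values within each slide row. The first and second panels describe values used in choosing the family or sharing its naive arrays; open circles mark features at background on both naive arrays, whose differences are not exact. In the third panel all means lie below 0, UC1005421 was detected on 1 of 3 sOVA host arrays, and miR-130a-3p in row 2 is at 0.66.

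**Figure D4:**
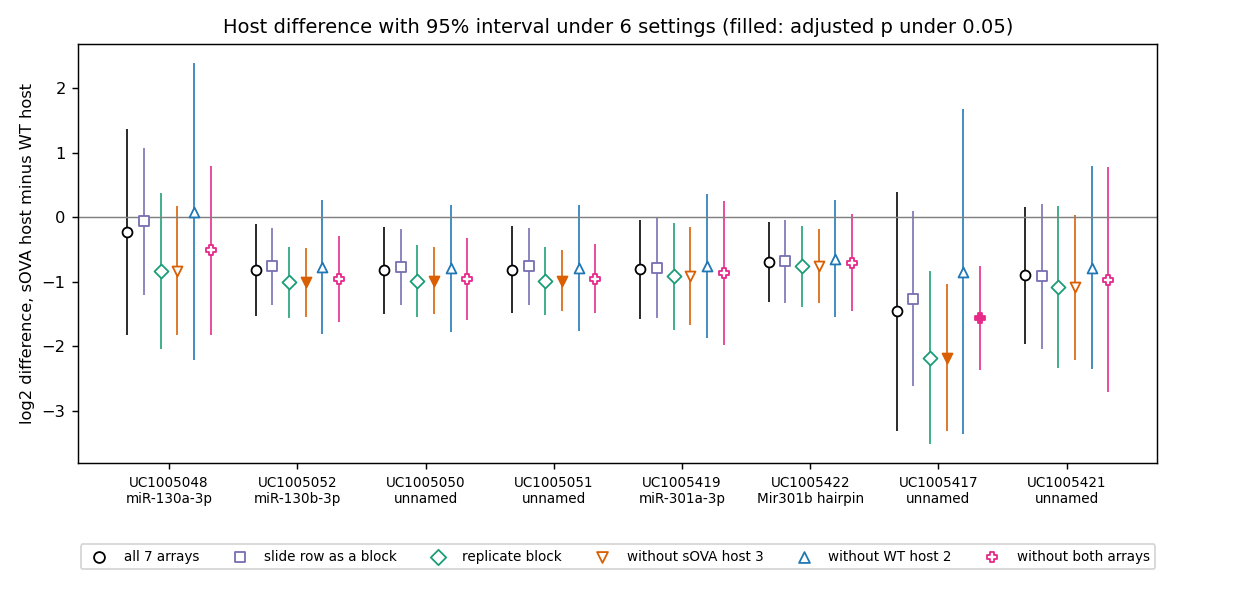
Log2 difference of sOVA host minus WT host cells for each family feature with its 95% interval, for all 7 arrays, for slide row or replicate number as a block, and for fits leaving out sOVA host array 3, WT host array 2 or both. Filled symbols mark an adjusted p under 0.05: 4 features without sOVA host array 3 and UC1005417 without both arrays.

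The other arm of the Mir130b hairpin followed the pattern of miR-130b-3p. The probe UC1005054 matches miR-130b-5p exactly.
miR-130b-5p: aCTCTTTCcctgttgcactact
It read 0.262% and 0.243% on naive arrays, 2.77% and 3.69% on WT host arrays and 1.33%, 1.87% and 3.54% on sOVA host arrays. It was well above background on both WT host arrays and on sOVA host arrays 2 and 3, and on neither naive array. Its bound against naive cells was at least 6.27-fold in WT host cells. The same ratio was 4.05-fold in sOVA host cells, but is no lower bound, since sOVA host array 1 was not well above background. Between hosts it differed by -0.63 ± 0.45 with overlapping groups and a limma adjusted p of 0.706. Over the 7 arrays its log2 level correlated with that of UC1005052 at r = 0.98 and Spearman's rho = 0.93, arrays that share their scaling and the split into naive and activated cells. A second probe of this arm, UC1005053, was detected on 3 arrays and was not tested. No probe matched miR-130a-5p, miR-301a-5p or miR-301b-5p.

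A pair of other seed classes overlap this seed with a shift of 1 base, and each is shown by the probe of a named member.
miR-19b-3p: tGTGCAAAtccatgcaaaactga
miR-148b-3p: tCAGTGCAtcacagaactttgt
The miR-19 class, part of the miR-17 cluster known for promoting lymphocyte proliferation, had 4 probes, all tested. None passed in either direction in any of the 3 comparisons, against the shares of all features given above, and the class medians were -0.01 for WT host minus naive, -0.58 for sOVA host minus naive and -0.57 for sOVA host minus WT host. The probe for miR-19b-3p (UC1004801) read 354% and 310% on naive, 267% and 282% on WT host, and 248%, 201% and 158% on sOVA host arrays. For miR-19a-3p (UC1004797) the levels were 52.0% and 50.4%, then 68.9% and 89.2%, then 52.7%, 35% and 44%. Its WT host arrays were above the naive arrays, by 0.62 ± 0.31 on the log2 scale, and its sOVA host arrays overlapped them. The other probes of the class, UC1004805 and UC1004806, differed from naive cells by -1.11 ± 0.48 and 0.25 ± 0.28 in WT host cells.

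The miR-148 and miR-152 class had 9 probes, of which 2 were tested. The probe for miR-148b-3p (UC1005134) read 7.39% and 7.44% on naive, 16.1% and 13.9% on WT host, and 11.8%, 11.5% and 12.8% on sOVA host arrays. It passed as higher in WT host than naive cells, by 1.01 ± 0.25 with a limma adjusted p of 0.039, and in neither other comparison. For miR-148a-3p (UC1005132) the levels were 6.24% and 6.62%, then 17.3% and 23.2%, then 10.4%, 8.01% and 24.5%. It was 1.64 ± 0.55 higher in WT host than naive cells with a limma adjusted p of 0.087. The difference between the classes and the miR-130 and miR-301 family was not tested, since the family was chosen on this contrast.

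The 8 family features followed each other closely over the 7 arrays, with Pearson's r from 0.834 to 1.000 and a median of 0.964 over 28 pairs, which share the scaling and the split between naive and activated arrays; 3 of the 8 were at background on the naive arrays. To find other features of like pattern, the mean log2 level of the 4 family features detected on all 7 arrays was correlated with the 334 other tested features. The median r was 0.17 and 40 features exceeded 0.9. The closest 5 were UC1005264 (unnamed, r = 0.988, Spearman's rho = 0.93), miR-148b-3p (UC1005134, r = 0.986, rho = 0.96), miR-363-3p (UC1005544, r = 0.981, rho = 0.93), UC1005519 (unnamed, r = 0.976, rho = 0.86) and miR-130b-5p (UC1005054, r = 0.976, rho = 0.89). They shared the order of group means but differed in the size of the change. UC1005544 read 8.49% and 7.77% on naive, 22% and 28.4% on WT host, and 17.3%, 18% and 19% on sOVA host arrays. UC1005519 read only 5.93% and 5.99%, then 8.18% and 7.97%, then 7.16%, 7.51% and 7.30%. The log2 difference from naive cells was 2.47 in WT host and 1.77 in sOVA host cells for UC1005264, and 3.66 and 3.04 for miR-130b-5p. It was 2.54 and 1.73 for miR-130b-3p (UC1005052). UC1005264 and miR-130b-5p were at background on the naive arrays, so their differences are not exact. UC1005264 was detected on 3 of the 7 arrays, so its naive levels of 0.269% and 0.294% are background.

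**Figure D5:**
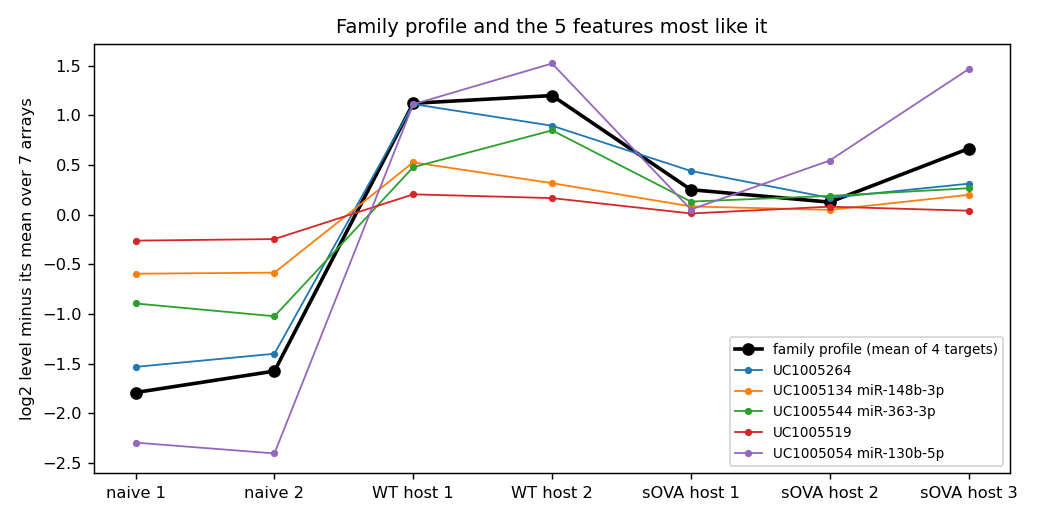
Log2 level minus its mean over the 7 arrays for the mean of the 4 family features detected on all arrays and for the 5 tested features that correlate best with it (r = 0.976 to 0.988, n = 7 arrays). All 6 lines are lowest on the naive arrays, and UC1005519 moves least.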

How the data were processed

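Cy3-labelled small RNA from 7 samples was read on 1-colour arrays with 13935 spots, 7 for each of 1874 probes. The deposited scanner files hold spot intensity that is background-subtracted but not scaled between arrays, per the file headers, with flags for outlier and well-above-background spots as other columns. The submitters' processing notes name Agilent Feature Extraction 10.6, and the file headers name 9.5.1.1. The deposited value table holds log2 values of 1776 rows with column medians of 5.69 to 5.70. Only 4 of its rows matched a probe and no family probe did, so its scale, centring and direction could not be set against the family and it was not used here.

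Targets were read as the reverse complement of each probe without the last 10 T and the leading G. Probes with equal targets, or whose target began with the whole of a shorter one, were merged, which gave 1753 features. Of the 1874 probes, 497 equalled a RefSeq mature miRNA, 116 matched one apart from an end, and 1261 were unmatched and are named by probe. Control and outlier spots were left out, the log2 signals of a probe were averaged, and the 75th percentile of 253 probes was subtracted per array. The 342 features were fitted together with limma 3.58.1 in R 4.3.3 (lmFit and eBayes) on 3 groups, with Benjamini-Hochberg adjustment, after a check on simulated data. Adjusted p-values in the text come from that fit or from the alternative named beside them. No saturated spots were found, and precision is limited by how few arrays there are.

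Members and lists were chosen with earlier results of these data known. Named features are the family probes, the 5 tested features most correlated with the mean of the family features detected on all arrays, up to 4 of the brightest probes of each shifted-seed class, and probes matching the 5p arms. Alternatives were other scalings, quantile normalization, normexp background, other detection filters, no merging, replicate or slide-row blocks, and leaving out arrays.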

Additional observations from a re-analysis of the deposited data

How the results depend on the processing

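With 7 arrays and as few as 2 in a group, only large differences could pass. The 4 family features detected on all 7 arrays kept their sign in both comparisons with naive cells in every setting run (WT host 2.03 to 3.70, sOVA host 0.91 to 3.09). With normexp background the log2 difference from naive cells was 3.27 in WT host and 2.71 in sOVA host cells for UC1005422, and 3.88 and 2.64 for UC1005417. These lie below the bounds given for the main scaling. Against naive cells, 44 and 53 of all 342 features passed as higher in WT host and sOVA host cells, in that order. With the 75th percentile of all probes 19 and 24 did, and with no detection filter 14 and 24 of 1753. With features detected on all 7 arrays it was 20 and 28 of 214. The family count passing as higher fell from 7 to 4 in both comparisons under each of these alternatives. The 4 came from 14 tested family features with no detection filter and from 4 with features detected on all 7 arrays. Leaving out 1 array gave 3 to 8 in sOVA host cells, with 3 without naive array 1 or 2. Between hosts the count was 0, with 0 to 4 when leaving out 1 array and 1 without WT host array 2 and sOVA host array 3 together. Between hosts miR-130a-3p (UC1005048) turned to 0.09 without WT host array 2, 0.29 without sOVA host array 2 (range -0.83 to 0.29 when leaving out 1 array) and 0.66 within slide row 2, and the cause was not tested. Replicate numbers did not pair the arrays (same-numbered arrays correlated at -0.60 to 0.35). With a replicate block, 8 and 7 family features passed as higher in WT host and sOVA host against naive cells. Of all 342 features, 85 and 69 then did. Between hosts 0 family features passed with it, and 27 of all 342 features. The 75th percentile of all probes moved the median of all features to -0.24, -0.70 and -0.45 in these 3 comparisons and the split of calls in WT host against naive cells from 44 higher and 20 lower to 19 and 20. In sOVA host against naive cells it moved from 53 and 19 to 24 and 44. Median scaling gave 33 and 25 in WT host cells, and quantile normalization 34 and 28 in sOVA host cells. The deposited value table was not run as an alternative because no family probe matched it.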
